A study of Mus musculus with 120 samples.

Results

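Endoplasmic reticulum (ER) stress and heat shock genes are 39 genes, taken as every probe set whose gene symbol is one of them. They were measured in the livers of 60 male mice of 30 strains. Of the 39 genes, 37 had at least 1 probe set on the array, 89 probe sets in all among 34945 with a single gene symbol. No probe set was named here for Hsf1 or Hsp90ab1. A filter on dim signals (above the median of all values in at least 2 of the 60 males) left 77 probe sets of 36 genes, among 19429 probe sets of 11949 genes tested. Hspa1a did not pass it: its 1 probe set was highest at 6.9686, under the median of 7.417, and it is not counted further. Hspa1a and Hspa1b are near-identical copies, so the Hspa1b signal is uncertain as to which gene it comes from.

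The tested strains were 28 consomic strains and MSM, an inbred strain of Japanese wild mouse origin. Each consomic strain carries, on a C57BL/6J (B6) background, 1 chromosome or part of 1 from MSM. They are named after it: the Chr11 strain is B6-Chr11MSM, a C or T after the number marks strains that hold part of a chromosome, and B6-mtMSM has the mitochondrial DNA of MSM. The control was B6 itself. All mice were 10 weeks old and had been fasted for 4 hours, so no group is fed. There were 2 males a strain and 2 arrays a male, and no strain carried chromosome 10, where Ddit3 and Hsp90b1 lie. The animal number in each sample's title was taken as the male.

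The unfolded protein response begins at 3 sensors in the ER membrane. IRE1 (Ern1) splices the mRNA of Xbp1, PERK (Eif2ak3) lets Atf4 be translated, and ATF6 (Atf6) is cut to free a transcription factor. XBP1 and ATF6 raise ER chaperones and degradation factors, while ATF4 raises Ddit3, Atf3, Trib3, Asns and Chac1. The cytosolic heat shock response runs through HSF1 and raises the HSP70, HSP90 and HSP110 chaperones, their DNAJ and BAG partners and small heat shock proteins. Hepatocytes secrete much of the plasma's protein and depend on a large ER.

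Short DNA elements near the starts of these genes are shown because some of the members share them. The stretches come from RefSeq promoter windows of GRCm38.p6, which run from 250 bases before to 50 bases after a gene's start. Of the 39 genes, 32 had a window, 37 windows in all. Motifs were searched on both strands. The ER stress element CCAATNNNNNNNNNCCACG occurred in 6 of these 32 genes and in 0.119% of all 32851 windows. Its second form, ATTGGNCCACG, occurred in Herpud1 and Dnajb11 and in 0.0365% of all windows. The heat shock element was searched as GAANNTTCNNGAA or TTCNNGAANNTTC, which overlap each other in the pair shown here. It occurred in Hspd1, Hspe1 and Hsph1 and in 0.603% of all windows. Of the cytosolic heat shock genes grouped further on, only Hsph1 had it. Hspa1b, Dnaja1, Dnajb1 and Bag3 had windows without it, and Hspa8 and Hsp90aa1 had no window. The ATF4 element TGATGNAA occurred in Asns, Atf3, Chac1, Herpud1 and Trib3 and in 3.97% of all windows. In Hsph1, Dnajb11 and Trib3 the match lay after the start. A match describes the letters in the window only. The motif is in capitals, and each sequence reads 5′ to 3′ along the strand of its gene.
Hspa5 (chr2:34772010-34772058, + strand): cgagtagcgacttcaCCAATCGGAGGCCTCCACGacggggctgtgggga
Hsp90b1 (chr10:86705623-86705671, - strand): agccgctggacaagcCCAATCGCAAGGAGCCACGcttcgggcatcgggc
Creld2 (chr15:88819505-88819553, + strand): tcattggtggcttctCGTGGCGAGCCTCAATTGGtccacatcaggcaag
Pdia6 (chr12:17266476-17266524, + strand): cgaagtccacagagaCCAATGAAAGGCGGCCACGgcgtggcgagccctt
Herpud1 (chr8:94386362-94386402, + strand): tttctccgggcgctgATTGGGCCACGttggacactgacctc
Hspd1 (chr1:55088049-55088091, - strand): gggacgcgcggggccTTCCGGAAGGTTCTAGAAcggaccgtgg
Hspe1 (chr1:55088044-55088086, + strand): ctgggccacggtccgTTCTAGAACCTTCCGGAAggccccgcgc
Atf3 (chr1:191183421-191183458, - strand): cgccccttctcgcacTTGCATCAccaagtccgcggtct
Asns (chr6:7693210-7693247, - strand): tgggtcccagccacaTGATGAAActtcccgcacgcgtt
Hspd1 and Hspe1 lie head to head on chromosome 1, and their stretches overlap on opposite strands, so both genes show the same heat shock element.

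Values are the deposited signals, read here as log2 from their range, since no source used here states the base. The SD between males of 1 strain, called the residual SD, ran from 5.89e-06 to 0.0458 over the members' tested probe sets. How the values were made is unknown, so a difference is not read as a fold change and sizes are not set against each other between genes. Each difference is also given in residual SDs. Probe sets were called at an adjusted p under 0.05 in limma fits over all 19429 probe sets (Benjamini-Hochberg within each comparison). Array medians lay between 7.41583 and 7.4168. Hepatocyte markers were measured for 12 of 12 genes, of which 1 (Fgb) was lower in MSM than in B6 and none higher. Of 11 Kupffer cell markers 4 were lower in MSM and none higher (Csf1r, Lyz2, Clec4f and Vsig4, differences of -4.17 to -2.85 residual SDs). Their part in the results was not tested, and in whole liver a change in cell numbers and in RNA per cell cannot be told apart.

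Between the means of 2 males a strain, few of these genes were called. In the F-test over the 30 strains, 6 of 77 probe sets passed (7.79%), against 16.2% of all probe sets tested. They belonged to 4 genes. Xbp1, the transcription factor downstream of IRE1, had the largest F (43.2, adjusted p = 3.26e-15, probe set 1420886_a_at). Hspb1, a small heat shock protein that binds unfolded clients, followed with F = 4.52 (adjusted p = 0.00088). Hspe1, the lid of the mitochondrial chaperonin, had F = 4.46 (adjusted p = 0.000976). The sensor Ern1 had F = 2.98 (adjusted p = 0.0171, probe set 1438583_at). The next 6 genes, each by its probe set with the largest F, did not pass. They were Hyou1 (adjusted p = 0.0692), Hspb8 (0.118), Asns (0.137), Edem1 (0.14), Dnajb1 (0.153) and Dnaja1 (0.162). For Hyou1, Hspb8 and Edem1 this was not the brightest probe set, which had an adjusted p of 0.275, 0.129 and 0.981. At an unadjusted p under 0.05 the F-test took 16 of the 77 (20.8%), against 5836 of all 19429. Quantile normalization gave 35 members' probe sets in place of 6 (45.5%, against 81.7% of all). The array-level fit with the male as a random block gave 47, and there the order turned (61%, against 34.6% of all). That fit gives every probe set the same correlation of 0.307 between arrays of a male. The members' median share of variance was 61.4% between males and 15% between arrays, against 24.4% and 57.4% over all genes tested. By these medians their 2 arrays count there as more independent than they were. The 61% is therefore not read as a result about the members. Without the Chr7 strain's second male and the Chr9 strain's first male, described further on, 10 passed (13%, against 18.4% of all), which added Dnajb1, Hspb8 and Trib3. Leaving out Chr9 male 2 gave 11 (14.3%, against 22.8%). Leaving out Chr7 male 1 gave 16, a share of 20.8% slightly above the 19% of all.

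In MSM against B6, 4 probe sets were higher (5.19%, against 13.4% of all tested) and 6 lower (7.79%, against 9.95%). The higher ones were both probe sets of Hspe1 and both of Hyou1, an ER chaperone of the HSP110 family. The lower ones were 3 of Xbp1, both of Hspb1 and 1 of Ern1. The median difference was 0.448 residual SDs over the members and 0.526 over all probe sets. The median absolute difference was 0.835 residual SDs over the members and 1.5 over all. The split depends on scaling: quantile normalization gave 31 higher and 4 lower members, with 96.6% of all calls higher in place of 57.4%. Centring the arrays in units of the spread again gave 4 higher and 6 lower members, with 40.7% of all calls higher. Leaving out any 1 of the 4 males of MSM and B6 lowered the number of members' probe sets called.

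**Figure D1:**
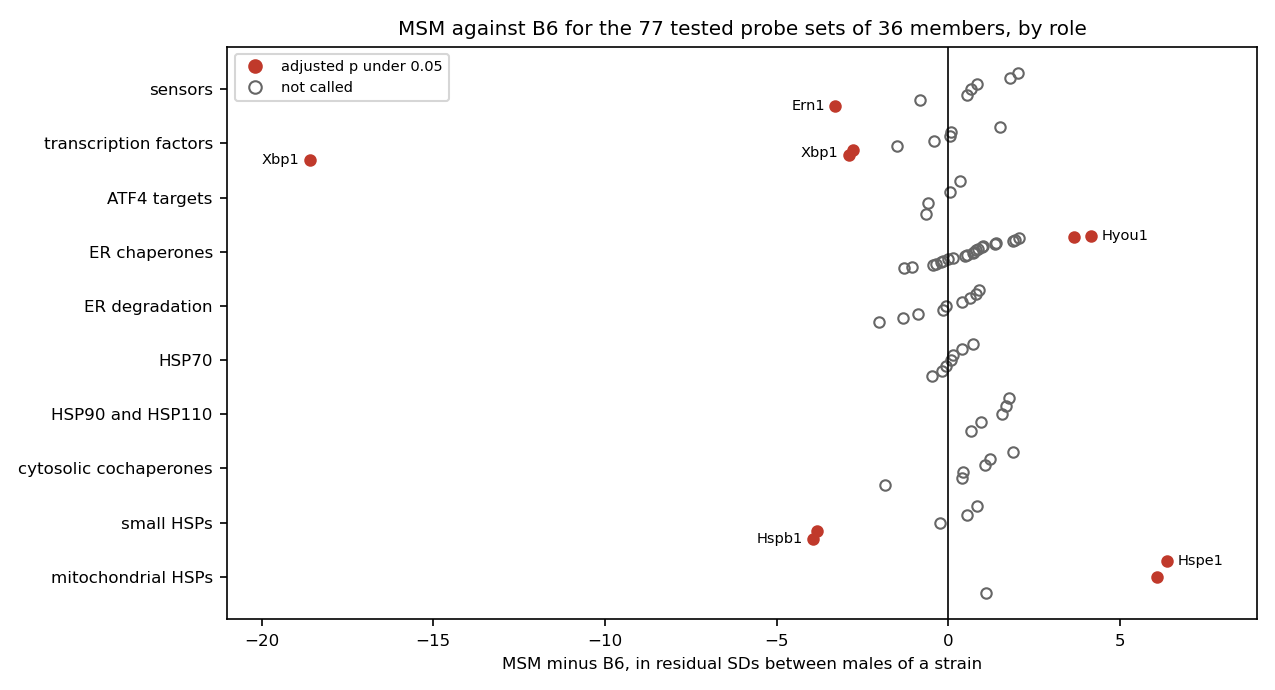
Each point is 1 of the 77 tested probe sets, placed by its difference MSM minus B6 in residual SDs (x axis) and by the role of its gene (y axis). Red points were called at an adjusted p under 0.05. Points of Xbp1, Ern1 and Hspb1 lie left of 0, and those of Hspe1 and Hyou1 right of it.

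By role, the sensors had 1 of 7 probe sets called in MSM (Ern1) and the transcription factors 3 of 8 (all Xbp1). Over all probe sets tested 13.4% were called higher and 9.95% lower. None of the 4 probe sets of the ATF4 targets was called. The ER chaperones had 2 of 23 (both Hyou1) and the ER degradation factors 0 of 9. In the heat shock groups 0 of 7 HSP70, 0 of 5 HSP90 and HSP110 and 0 of 6 cochaperone probe sets were called. The small heat shock proteins had 2 of 5 (both Hspb1) and the mitochondrial ones 2 of 3 (both Hspe1). Each role with a call had it in a single gene, so these counts are not read as results about roles. Hspa5 (BiP), the central ER chaperone, was lower by 0.351 residual SDs in MSM (95% interval -2.37 to 1.67, adjusted p = 0.828). Hsph1, an HSP110 chaperone, was 1.77 residual SDs higher, with an interval from -0.255 to 3.79 (adjusted p = 0.2).

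Xbp1 gave the widest separation. For probe set 1420886_a_at the 2 males of the Chr11 strain had 8.0325 and 7.9088, the MSM males 7.8674 and 7.8726, and the B6 males 8.6048 and 8.6271. The 54 males of the other consomic strains lay between 8.5319 and 8.7233 with a median of 8.6285. No male of MSM or the Chr11 strain overlapped the others. Xbp1 itself lies on chromosome 11. In MSM the signal was lower by 0.746 ± 0.04 (SE; -18.6 residual SDs, adjusted p = 1.13e-15) than in B6. In the Chr11 strain it was lower by 0.645 ± 0.04 than in B6 (adjusted p = 3.78e-13). It was lower by 0.664 ± 0.029 than the mean of the strains without an MSM chromosome 11 (adjusted p = 1.54e-17). Both calls kept their direction and threshold when any 1 male was left out.

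The other 3 probe sets of Xbp1 did not follow this one in the Chr11 strain. The brightest, 1437223_s_at, had 11.3167 and 11.3117 in the Chr11 strain, 11.3081 and 11.3077 in MSM, and 11.3112 and 11.3121 in B6. The first Chr11 male was thus the highest of all 60 and the MSM males the lowest. In MSM it was lower by 2.89 residual SDs than B6 (adjusted p = 0.0325), and leaving out any 1 of the 4 males raised the adjusted p to between 0.0849 and 0.166. In the Chr11 strain it was 1.52 residual SDs higher than the other strains (adjusted p = 0.522). Probe set 1420011_s_at was lower by 2.77 residual SDs in MSM (adjusted p = 0.0408), and 0.0937 to 0.196 without any 1 of the 4 males. After quantile normalization it was lower by 0.835 (adjusted p = 0.438). In the Chr11 strain it was 1.87 residual SDs higher (adjusted p = 0.329). Probe set 1420012_at was called in neither strain (adjusted p = 0.288 and 0.997). The 4 probe sets correlated with each other over the 60 males at r between 0.26 and 0.97. Probe sequences were not used here. Whether MSM sequence differences lie under the probes was therefore not tested, for this gene or any other.

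Ern1, on chromosome 11 too, was called in 1 of its 3 tested probe sets, lower in the Chr11 strain and in MSM. For 1438583_at the Chr11 males had 8.0396 and 8.0394, the MSM males 8.0396 and 8.0396, and the B6 males 8.0402 and 8.0407. The other consomic males ran from 8.0397 to 8.0410, just above the Chr11 and MSM males. The Chr11 strain was lower by 3.96 residual SDs than the strains without this chromosome (adjusted p = 0.000738), and 0.065 without its second male. MSM was lower by 3.29 residual SDs than B6 (adjusted p = 0.0147), but 4.01 higher after quantile normalization (adjusted p = 0.000435). Without B6 male 2, MSM male 1 or MSM male 2 its adjusted p was 0.188, 0.0683 and 0.0777. In the F-test, leaving out either MSM male or Chr11 male 2 gave 0.0655 to 0.0681. The brightest probe set, 1437119_at, differed by 0.835 residual SDs in MSM (adjusted p = 0.577) and by 1.82 in the Chr11 strain (adjusted p = 0.358), both upward. Probe set 1421240_at differed by -0.807 residual SDs in MSM (adjusted p = 0.592) and by -0.484 in the Chr11 strain (adjusted p = 0.924). The 3 probe sets correlated at r between 0.021 and 0.26. The other sensors were not called in MSM: Eif2ak3 differed by 0.662 residual SDs (adjusted p = 0.666) and the 3 probe sets of Atf6 by 0.545 to 2.04 (adjusted p = 0.136 to 0.727).

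Hspb1, on chromosome 5, had a lower signal in the Chr5 strain and in MSM. Whether MSM sequence differences lie under its probes was not tested. Its probe set 1422943_a_at had 8.1582 and 8.1233 in the Chr5 strain, 8.1594 and 8.1451 in MSM, and 8.2338 and 8.2218 in B6. The other 54 consomic males had a lowest value of 8.2044, a median of 8.2410 and a highest of 8.2906, so all 4 low males lay below every other male. The Chr5 strain was lower by 0.101 ± 0.014 (SE) than the strains without this chromosome (-5.27 residual SDs, adjusted p = 1.45e-05). It was lower by 0.087 ± 0.019 than B6 (adjusted p = 0.0155), which became 0.259, 0.1 or 0.317 without B6 male 1, B6 male 2 or Chr5 male 2. MSM was lower by 0.0755 ± 0.019 than B6 (adjusted p = 0.0038; 0.0506 without MSM male 2). The other probe set, 1425964_x_at, moved with it over the 60 males at r = 1. It was lower by 5.12 residual SDs in the Chr5 strain than in the other strains (adjusted p = 2.37e-05), and in MSM it was lower by 3.83 than in B6 (adjusted p = 0.00487). Hspb8, the other small heat shock protein, also lies on chromosome 5: in the Chr5 strain it was lower by 2.3 residual SDs than in the other strains (adjusted p = 0.127).

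Hspe1 was higher in MSM and, by less, in the Chr1 strain. Probe set 1450668_s_at had 10.5914 and 10.5914 in the Chr1 strain, 10.5936 and 10.5931 in MSM, and 10.5893 and 10.5896 in B6. The other consomic males ran from 10.5875 to 10.5908, below all 4. MSM was 6.39 residual SDs higher than B6 (0.00387 ± 6e-04 SE, adjusted p = 1.21e-05). The Chr1 strain was 3.29 residual SDs higher than the strains without an MSM chromosome 1 (adjusted p = 0.0121), and 0.329 or 0.41 without either of its males. The second probe set, 1422579_at, was 6.09 residual SDs higher in MSM (adjusted p = 2.4e-05) and 2.77 higher in the Chr1 strain (adjusted p = 0.0628). In the F-test its adjusted p was 0.0559 without MSM male 1.

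Hspd1, the chaperonin that works with Hspe1 and shares the heat shock element printed above, did not pass in either strain. It had 12.0590 and 12.0590 in the Chr1 strain, 12.0594 and 12.0594 in MSM, and 12.0594 and 12.0592 in B6. Hspd1 was lower by 1.29 residual SDs in the Chr1 strain than in the other strains (95% interval -2.75 to 0.162, adjusted p = 1). In MSM it was 1.1 residual SDs higher than in B6 (95% interval -0.923 to 3.12, adjusted p = 0.448). Over the 60 males Hspd1 and Hspe1 correlated at r = 0.5 (Spearman 0.41). The difference between these genes was not tested.

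Hyou1, on chromosome 9, was higher in MSM in both tested probe sets and in the Chr9 strain in 1 of them. Probe set 1423290_at had 8.4451 and 8.4452 in the Chr9 strain, 8.4451 and 8.4451 in MSM, and 8.4417 and 8.4421 in B6. The other consomic males overlapped them, with a lowest value of 8.4414, a median of 8.4431 and a highest of 8.4452. MSM was 4.16 residual SDs higher than B6 (0.00325 ± 0.00077 SE, adjusted p = 0.00227). The Chr9 strain was 4.21 residual SDs higher than B6 (adjusted p = 0.0301; 0.314, 0.164 and 0.33 without B6 male 1, B6 male 2 or Chr9 male 1). Against the strains without an MSM chromosome 9 it was 2.74 residual SDs higher (adjusted p = 0.0245), and 0.674 or 0.0539 without Chr9 male 1 or male 2. The brighter probe set, 1423291_s_at, was 3.66 residual SDs higher in MSM (adjusted p = 0.00688; 0.0585 without B6 male 1). In the Chr9 strain it was not called: it was 1.94 residual SDs higher than in the other strains (adjusted p = 0.101). The Chr9 call of 1423290_at against B6 was also lost under quantile normalization (adjusted p = 0.0792) and on the lower-numbered or higher-numbered arrays alone (0.174 and 0.0591). Against the other strains the same settings gave 0.0506, 0.0869 and 0.092.

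**Figure D2:**
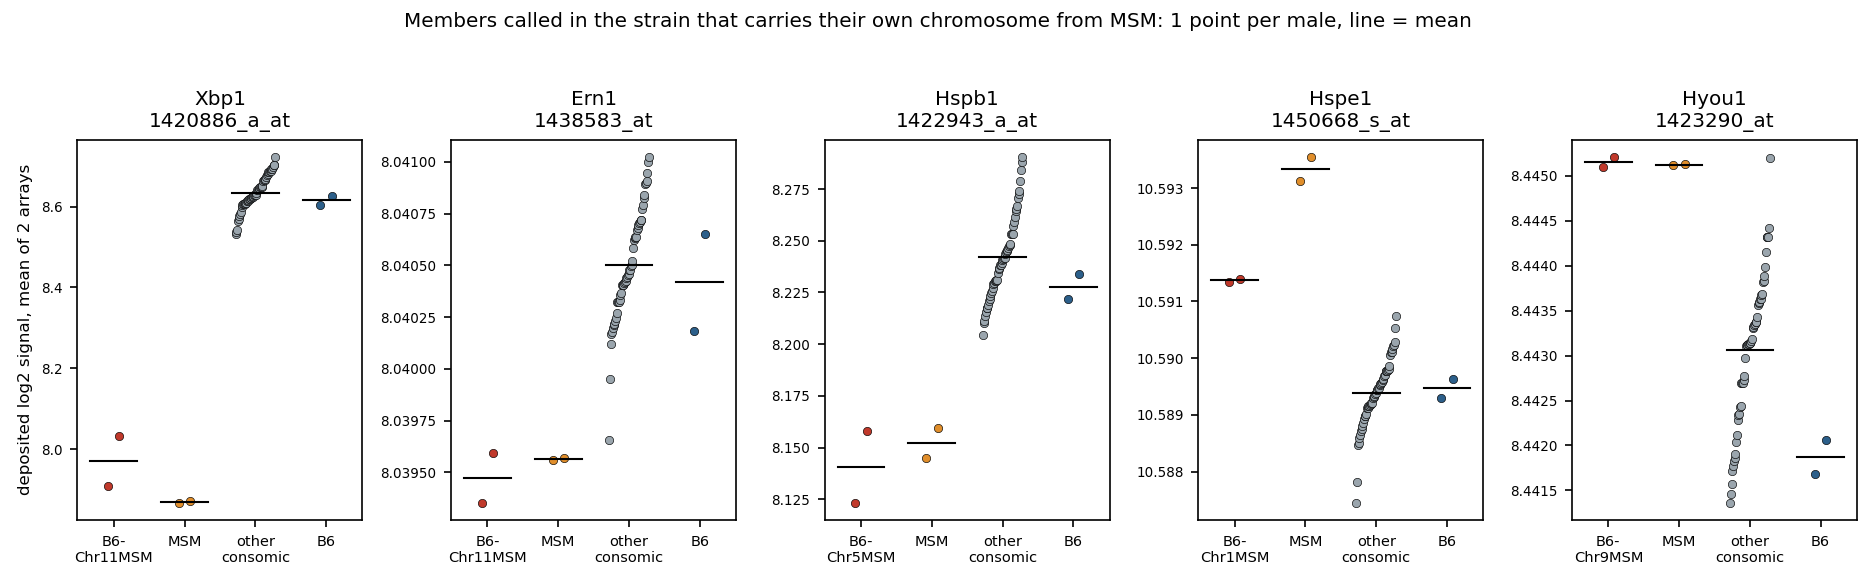
Deposited log2 signal (y axes, one scale per panel) of each male for 5 probe sets, by group: the consomic strain with the gene's own chromosome from MSM, MSM, the other consomic strains (points sorted by value) and B6. Points are means of 2 arrays, and lines are group means. For Xbp1, Hspb1 and Hspe1 the males of the first 2 groups lie apart from all others, for Ern1 just below them, and for Hyou1 the other consomic strains overlap.

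Over all consomic strains against B6, 4 of 2156 pairs of a member's probe set and a strain were called (0.186%, against 0.365% of all pairs). All 4 have been described: Xbp1 in Chr11, both Hspb1 probe sets in Chr5 and Hyou1 in Chr9. These comparisons share the 2 B6 males, and leaving out either of them left 1 call (0.0464%, against 0.129% and 0.145% of all pairs). Without Chr5 male 2 there were 2 calls (0.0928%, against 0.359%). Without Chr7 male 1 there were 15 (0.696%, against 0.552%), and without Chr9 male 2 also 15 (0.696%, against 0.987%). In the strain with its own chromosome from MSM, set against the strains without it, 6 of 98 pairs were called (6.12%, against 10.3%). Of these 4 were lower and 2 higher, and of the 2627 pairs called over all probe sets 62.4% were lower. Without Chr7 male 1 the 6 became 12 (12.2%, against 10.7% of all), and without Chr7 male 2 they became 10 (10.2%, against 10.3%).

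The nearest genes outside that threshold were Edem1 and Hspa1b. Edem1, a lectin of ER-associated degradation, lies on chromosome 6. Its probe set 1451218_at differed by -2.88 and -2.67 residual SDs in the Chr6T and Chr6C strains from the strains without any MSM chromosome 6 (adjusted p = 0.057 and 0.0869). The labels give no boundary between these partial strains, so which of them carries the MSM Edem1 is unknown. In MSM this probe set differed by -2 residual SDs from B6 (adjusted p = 0.144). The brightest probe set of Edem1, 1424065_at, differed by 0.387 residual SDs in Chr6T and -0.0934 in Chr6C (adjusted p = 0.998 and 0.999). Hspa1b, the inducible HSP70, lies on chromosome 17. Its probe set 1452318_a_at had 7.8231 and 7.7888 in the Chr17 strain, 7.7111 and 7.7290 in MSM, and 7.7529 and 7.7177 in B6. The Chr17 strain was 2.79 residual SDs higher than the other strains (adjusted p = 0.06), and MSM differed from B6 by -0.459 (adjusted p = 0.773).

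Away from the substituted chromosome, 7 pairs were called against the other strains (0.34%, against 0.296% of all such pairs). In the Chr14 strain Hspa8, the constitutive HSP70, had 7.6881 and 7.6995 (probe set 1431182_at), against 7.6320 to 7.6800 in the 56 males of the other strains. These were the 2 highest of all 60 males. The difference was 3.64 residual SDs (adjusted p = 0.00492; 0.0668 and 0.53 without male 1 or male 2). Its 3 brighter probe sets differed by 1.65 to 2.03 residual SDs in the same direction (adjusted p = 0.301 to 0.487), and the 4 correlated at r between 0.39 and 0.93. Dnajb1, an HSP40 partner of HSP70, had 8.7770 and 8.7775 in the Chr14 strain, and 8.7730 to 8.7793 in the other strains. These are values of its probe set 1416755_at, which was 3.06 residual SDs higher (adjusted p = 0.03). Without male 1 or male 2 the difference was 3.29 or 2.74, and the call did not hold without either. It was also lost on the lower-numbered arrays (adjusted p = 0.0852) and with B6 as the reference (0.515). The other tested probe set of Dnajb1, 1416756_at, was not called in the Chr14 strain (r = 0.88 between the 2 over the 60 males). Hspa8 lies on chromosome 9 and Dnajb1 on chromosome 8. The other 5 calls were Ddit3 and Atf3 in the Chr7 strain and Asns and both probe sets of Trib3 in the Chr9 strain.

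Those 5 calls rest on 1 male of each strain. Atf3, a stress-induced transcription factor, had 7.8195 in Chr7 male 2 and 7.7674 in Chr9 male 1. Chr7 male 1 had 7.5426, Chr9 male 2 had 7.5475, and the 58 males other than the first pair lay between 7.5396 and 7.5569. Ddit3 (CHOP), a transcription factor of ER stress, had 8.1812 and 8.1595 in the same males and 8.0592 to 8.0757 in the other 58. No other male came near them. Trib3, a pseudokinase induced by ATF4, was highest in Chr9 male 1 at 8.1698 and next in Chr7 male 2 at 8.1624, with the others at 8.1337 to 8.1541. Atf4 had 9.6829 and 9.6818, above 9.6775 to 9.6805 in the others, and Eif2ak3 had 7.6626 and 7.6615, above 7.6560 to 7.6589. Hspb8 was also highest in Chr7 male 2 and Chr9 male 1, at 10.0699 and 10.0681. Asns, asparagine synthetase, was highest in Chr9 male 1 at 7.5193 and ranked 5 in Chr7 male 2.

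Both males were the 2 highest of 60 for 6 of the 36 members and for 9 of 26 other genes of the integrated stress response, among them Fgf21, Nupr1, Ppp1r15a and Slc3a2. The same held for 4 of 13 immediate-early genes, 3 of 7 stellate cell markers, 1 of 41 other heat shock genes and 0 of 31 other ER genes. The share over all genes tested was not counted, and the 2 males were picked out by members' own values. The 6 of 36 is therefore not read as a result about the members. The 12 ER chaperones ranked between 2 and 51 of 60 in Chr7 male 2 and between 4 and 45 in Chr9 male 1. Dnajb9, a BiP cofactor, ranked 2 and 4 there, Hspa5 11 and 4, Manf 36 and 20, and Creld2 28 and 32. Without Chr7 male 2, Atf3 in the Chr7 strain was lower by 0.311 residual SDs than the other strains (adjusted p = 0.956), where with it the strain was 2.82 higher (adjusted p = 0.029). Without both males it was lower by 1.19 (adjusted p = 0.741). Ddit3 in the Chr7 strain was 2.97 residual SDs higher with Chr7 male 2 (adjusted p = 0.0199) and 0.0981 higher without it (adjusted p = 0.99). Without Chr9 male 1, the differences of Trib3 and Asns in the Chr9 strain were 0.833 and 0.992 residual SDs (adjusted p = 0.999 for both), where with it they were 2.92 and 2.63 (adjusted p = 0.0161 and 0.0307).

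Other gene lists moved in these males. A list's score is the mean of its genes' z-scores over the 60 males. For 13 immediate-early genes it was 2.47 in Chr7 male 2 and 2.38 in Chr9 male 1, against -1.01 to 0.806 in the other 58. For 7 stellate cell markers it was 1.29 and 2.98, against -1.43 to 1.06, and for 11 Kupffer cell markers 0.77 and 2.6, against -2.57 to 2.13. The list of 26 other integrated stress response genes had 1.41 and 2.16, above the highest of the others at 0.851. In Chr9 male 1 alone, 31 other ER genes had 1.16, against a highest of 1, while the circadian list had -1.08 and the pancreas list -1.77, below the lowest of the others at -0.882 and -1.57. In Chr7 male 2 alone, the other heat shock genes had 0.82, against a highest of 0.801. The hepatocyte, endothelial, cholangiocyte and lymphocyte lists lay within the range of the other 58 in both males. Their part in the result was not tested.

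Correlations between members were summarised in groups chosen with earlier results of these data known. Higher values within a group than between groups are thus partly set by that choice. Among the 12 ER chaperones the median correlation over the 60 males was 0.52 (66 pairs, 0.059 to 0.89), and 0.67 after each strain's mean was removed. Creld2 and Manf, secreted ER stress proteins, correlated at r = 0.89 (Spearman 0.87). The r was 0.87 without the 2 males farthest from the median of Creld2. Hspa5 and Manf correlated at r = 0.86, and Hspa5 and Hsp90b1 (GRP94) at 0.72. Other ER genes that are no members (31 tested) had a score that correlated with that of the chaperones at r = 0.82. All these correlations are descriptions over males that share strains and arrays, and genes on 1 array share its labelling and scan.

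The extremes of the chaperone group came from 1 strain. Creld2 was lowest in Chr1 male 1 at 8.7656 and highest in Chr1 male 2 at 8.8831, with a median of 8.8274 over the 60 males. The mean z-score of the 12 chaperones was -1.84 and 1.96 in these 2 males, the lowest and highest of all. Across strains the gap between 2 males of a strain in this score had a median of 0.35 and was largest in the Chr1 strain at 3.8. The 30 strain means had an SD of 0.444. A median gap and an SD are unlike measures, so these values do not show whether strains differed by more than males. MSM had 0.307 and 0.244, and B6 -0.852 and 0.0596, so the MSM males lay above both B6 males and well inside the range of the panel.

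Another group was made of cytosolic heat shock genes. For Hspa1b, Hspa8, Hsp90aa1, Hsph1, Dnaja1, Dnajb1 and Bag3 the median correlation was 0.61 (21 pairs, 0.31 to 0.89). Hsp90aa1, the inducible HSP90, and Hsph1 correlated at r = 0.89 (Spearman 0.86; 0.87 without the 2 males farthest from the median of Hsp90aa1). Dnajb1 and Bag3, a cochaperone that hands clients to autophagy, correlated at r = 0.8 (Spearman 0.71). The mitochondrial Hspd1, not placed in the group, correlated with Hsp90aa1, Hsph1 and Dnaja1 at r = 0.7, 0.65 and 0.64, and less with the group's other genes. The mean z-score of this group was 0.991 and 0.989 in MSM and 0.279 and -0.0745 in B6, within a range of -1.63 to 2.32. It was highest in Chr7 male 2. Over the 60 males it correlated at r = 0.64 with the other heat shock genes, at -0.4 with the lymphocyte list and at 0.35 with the immediate-early list (0.59, -0.39 and 0.15 without Chr7 male 2 and Chr9 male 1). Dnajb1 probe set 1416756_at was 8.6840 there and 8.6816 in the next male, a gap of 35.7% of its range.

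The correlation among the PERK and ATF4 genes rested on the 2 males with high Atf3 and Ddit3. For Eif2ak3, Atf4, Ddit3, Atf3, Trib3, Asns and Chac1 the median correlation was 0.48 over 60 males and 0.015 over the other 58. Atf3 and Ddit3 correlated at r = 0.99 but at a Spearman coefficient of 0.17, and r was 0.1 without these males. The mean z-score of this group correlated at r = 0.79 with the immediate-early list, 0.75 with the other integrated stress response genes and 0.67 with the stellate list. Without the 2 males these were 0.47, 0.0031 and 0.36. The ER chaperones kept a median of 0.52 and the cytosolic heat shock genes 0.6 without them. Between groups the medians were lower: 0.03 for ER chaperones with PERK and ATF4 genes, 0.2 for ER chaperones with cytosolic heat shock genes and 0.18 for the remaining pairing. Single pairs crossed the groups: ER chaperones with cytosolic heat shock genes ran from -0.35 to 0.63 over 84 pairs, the highest being Hspa5 with Hsph1.

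**Figure D3:**
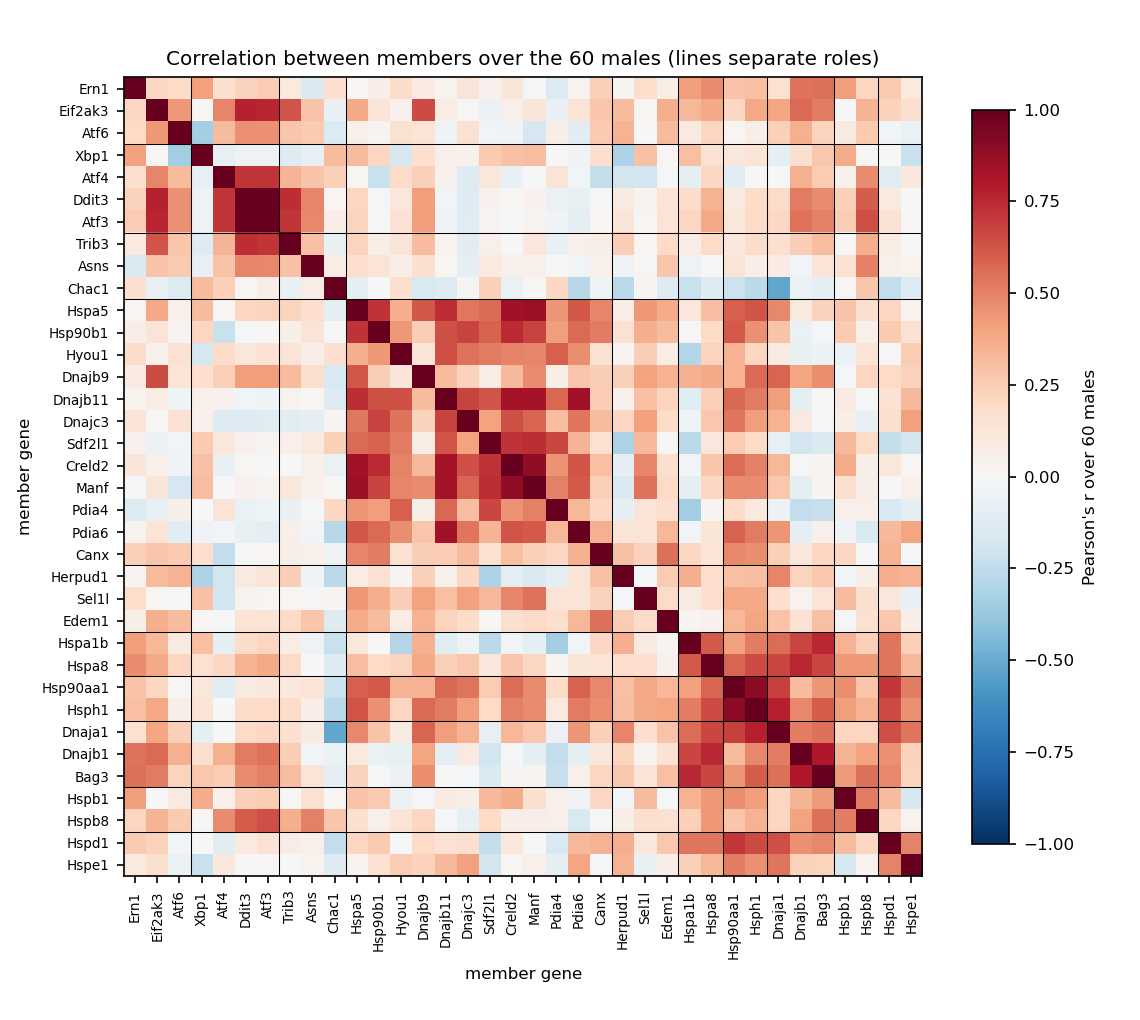
Pearson's r over the 60 males (colour) between 36 members, each by its brightest tested probe set, ordered by role with lines between roles. The ER chaperones (Hspa5 to Canx) and the cytosolic heat shock genes (Hspa1b to Bag3) form red blocks, with medians of 0.52 and 0.61.

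**Figure D4:**
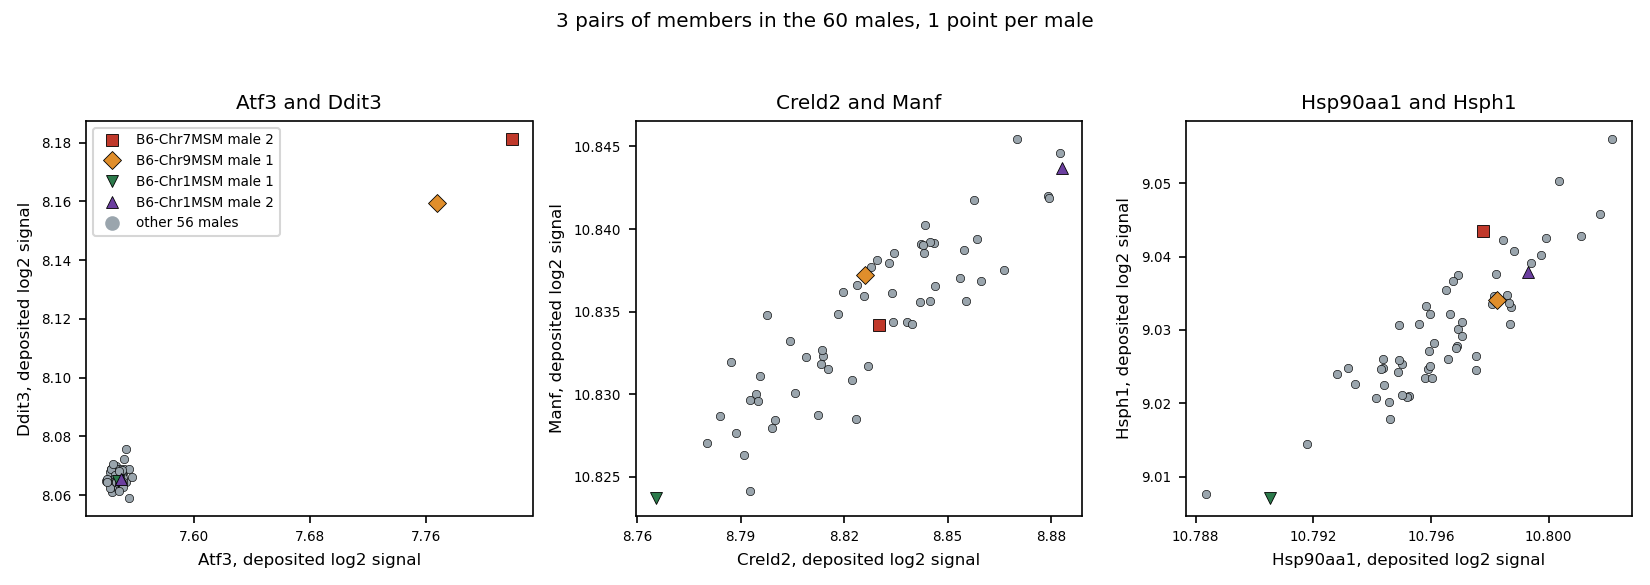
Deposited log2 signals of 3 pairs of members, 1 point per male, with 4 males marked. Atf3 and Ddit3 set Chr7 male 2 and Chr9 male 1 apart from the other 58 males, while Creld2 with Manf and Hsp90aa1 with Hsph1 form continuous bands with r = 0.89.

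Most of the variance of these genes lay between males of 1 strain. Over the 36 genes the median share was 6.86% for strain, 61.4% for male within strain and 15% for array within male. Over all 11949 genes tested the medians were 11.9%, 24.4% and 57.4%. The share of males exceeded that of strains in 33 of 36 members, and the estimated strain share was 0 in 13, among them Hspa5, Creld2, Atf3, Ddit3 and Hsph1. These shares are those of each gene's brightest tested probe set. There, strain exceeded male in Hspb1 (61.4% against 33.1%), Hspe1 (49.2% against 7.53%) and Sel1l (18.7% against 16%), an adaptor of ER-associated degradation. The share between arrays was 5.52% in Hspb1, 43.2% in Hspe1 and 65.2% in Sel1l, which did not pass the F-test (adjusted p = 0.178). Among the other called probe sets, Xbp1 1420886_a_at had 94.8% between strains and 3.95% between males, and Ern1 1438583_at had 43.3% and 33.4%. Creld2 had 94.5% between males and 5.53% between arrays, so the 2 arrays of a male gave nearly the same value. Canx and Pdia4 had 91.9% and 87% between arrays of 1 male, so their differences between males were within the array error.

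**Figure D5:**
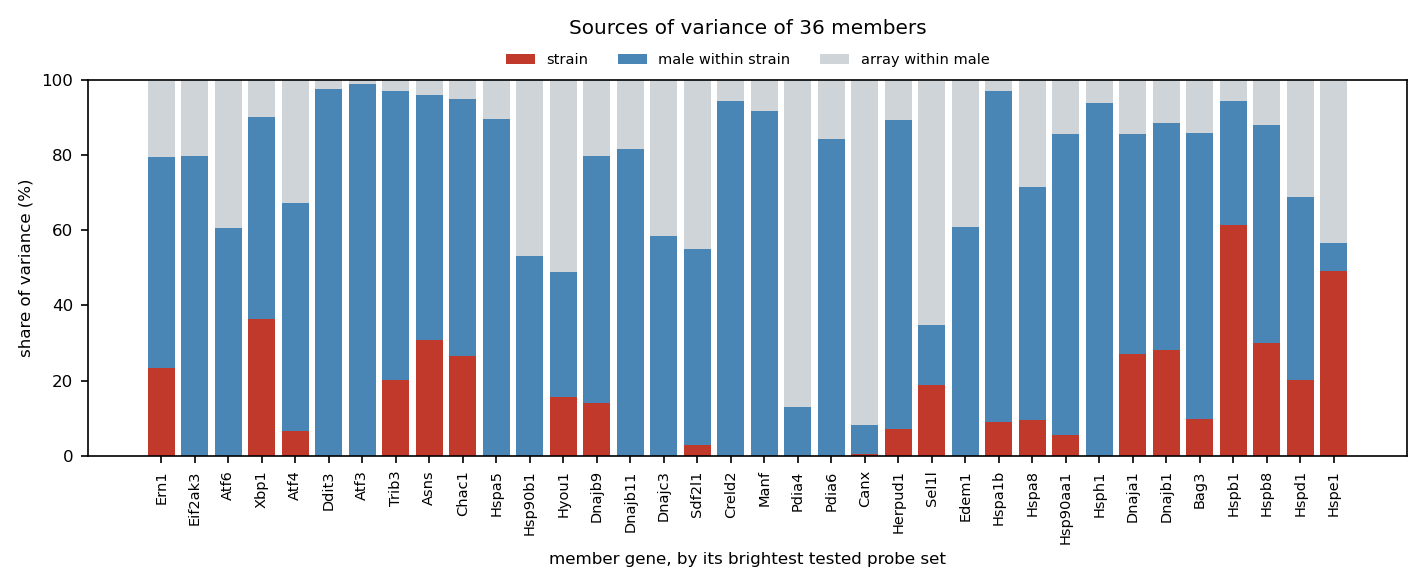
Share of variance (y axis, percent) between strains, between males of a strain and between arrays of a male for 36 members by their brightest tested probe set (x axis, ordered by role). Blue, the share of males, is the largest part in most bars, and red, the share of strains, is largest in Hspb1 and Hspe1.

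Other genes of the same pathways were counted by their brightest probe set. In MSM against B6, 8 of 31 other ER genes were higher and 2 lower, led by Derl2 (-7.55 residual SDs), Ssr1 (7.28 higher) and Mbtps1 (4.63 higher). Of 26 other genes of the integrated stress response 6 were higher and 1 lower, led by Ddit4 (5.69 higher), Nars (-4.52) and Phgdh (4.28 higher). Of 41 other heat shock genes 8 were higher and 7 lower, led by Dnaja3 (8.84 higher), Bag1 (-4.37) and Ahsa1 (3.97 higher). Over all genes counted the same way 14.1% were higher and 10.1% lower.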

How the data were processed

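Total RNA of whole liver was hybridised to Affymetrix mouse arrays, 120 in all. The authors deposited 1 log2 signal per probe set and array (6.34 to 14.82), a unit read from the file's values, since no source used here states the base. How they were summarised and background-corrected is not given in the sources used here. The precision of each strain's mean is limited by its 2 males. Probe sets were named from the platform annotation, updated by gene ID to RefSeq GRCm38.p6. Of 45037 probe sets, 34945 had 1 symbol, 932 several and 9160 no annotation.

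Both arrays of a male were averaged. limma 3.58.1 (R 4.3.3) fitted 30 strain means to 60 males (30 residual degrees of freedom, prior 0.579), with a moderated F-test and contrasts against B6 or against the mean of the strains without that MSM chromosome (B6 included, MSM left out). The fit was tested on simulated data. C and T strains count as the whole chromosome. The probe set with the highest mean stands for its gene. Full statistics are given for members called in MSM, in their own chromosome's strain or in a consomic strain against B6 with both males beyond both B6 males, and for the 10 smallest F-test p-values. At most 3 called genes per other pathway list are named. Immediate-early, circadian and 7 cell type marker lists were also counted.

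The members, lists and correlation groups were chosen with earlier results of these data known. Alternatives covered normalization, filter, arrays, moderation, ranks, reference and each male. Those without Chr7 male 2 and Chr9 male 1 together were added after seeing the data.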

Additional observations from a re-analysis of the deposited data

How the results depend on the processing

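Counts of called members were recomputed under each alternative. Quantile normalization gave 35 for the F-test and 35 for MSM against B6 (45.5% each, against 81.7% and 84.7% of all). With 1 probe set per gene they were 2, 4, 1 and 2 for the F-test, MSM, consomic strains against B6 and own chromosome, where 36 probe sets were tested. Of all 11949 genes counted this way 2043 passed the F-test, and in MSM 1731 were higher and 1226 lower. The shares of all pairs for consomic strains and own chromosome are not given here, so those counts are not read as a result about the members. The array-level fit with the male as a random block (correlation 0.307) gave 47 for the F-test (61%, against 34.6% of all). It gave 41 for consomic strains (1.9%, against 1.08%) and 18 for own chromosome (18.4%, against 14.2%). In this fit these 3 shares lay above those of all probe sets, where they lay below with males averaged (MSM had 15 calls, 19.5% against 26.1%). It gives all probe sets 1 correlation, although the members varied more between males and less between arrays than all genes did. These 3 shares are therefore not read as a result about the members. Normal scores of ranks gave 0, 2, 0 and 0 (limma), with 0 of all probe sets in the F-test and own chromosome. In MSM they called 933 of all 19429 probe sets higher and 539 lower, beside the 2 of 77 members' probe sets, both higher. The share of all pairs for consomic strains on ranks is not given here. At an unadjusted p under 0.05, 21 of 77 members' tests passed on ranks for the F-test. For consomic strains 120 of 2156 passed and for own chromosome 29 of 98. The shares over all probe sets at this unadjusted threshold were not counted, so these 3 counts are not read as a result about the members. The higher-numbered arrays alone gave 10 for own chromosome (10.2%, against 8.77%). Without Chr7 male 2 and Chr9 male 1 the F-test gave 10 (13%, against 18.4%) and own chromosome 11 (11.2%, against 10.5%). MSM against the mean of the consomic strains gave 25 (32.5%, against 41.8%), and consomic strains against the other strains gave 13 (0.603%, against 0.765%). Except where the construction shows it (fewer probe sets), the cause was not tested. The other alternatives stayed within 1.5 times. Leaving out 1 male gave 4 to 16 for the F-test, 6 to 7 for MSM, 1 to 15 for consomic strains and 5 to 12 for own chromosome. A lone male is there assumed to vary like those of other strains. The shares over all probe sets were given above for some of these males only, so the ranges are not read as a result about the members.

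Of 33 results for single probe sets, 312 of 381 values under alternatives kept direction and call, 67 lost the call and 2 reversed. Leaving out a male, 402 of 442 kept both, 39 lost the call and 1 reversed. The reversals were Ern1 1438583_at in MSM under quantile normalization (4.01 residual SDs) and Atf3 in Chr7 without Chr7 male 2 (-0.311, where it was 9.19 without male 1) or without it and Chr9 male 1 (-1.19). Xbp1 1420886_a_at lost its calls only on ranks, where adjusted p was 0.14 to 0.635. No paired analysis was possible because the animal numbers are individual to each strain and the array numbers under an animal number are repeats of 1 male.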

Other observations

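Of 12 circadian genes none was called in MSM against B6 (limma), and of 13 immediate-early genes Nr4a1 and Dusp1 were higher, by 3.09 and 2.83 residual SDs (adjusted p = 0.0221 and 0.0361). Of 8 endothelial markers 1 was higher and 1 lower in MSM. Of 7 stellate markers 1 was lower, and of 2 cholangiocyte markers 1 was higher. None of 3 lymphocyte and none of 4 pancreas genes was called.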
